A study of Saccharomyces cerevisiae with 61 samples.

Results

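The course of budding yeast in camptothecin (CPT) was followed on 5 of the 61 two-colour arrays of the study, chosen by their labels as the arrays of wild-type replicate 1 that join its CPT samples to each other. They hold RNA of BY4741 wild-type cells synchronised by mating pheromone arrest and kept in 50 µM CPT, sampled at 30, 45, 60 and 75 min, and RNA of an untreated wild-type sample at 0 min. The 5 arrays form a ring. The first sets CPT 30 min over untreated 0 min, the next ones CPT 45 over 30 min, 60 over 45 min and 75 over 60 min, and the last sets untreated 0 min over CPT 75 min. The study asks, by its title, how replication stress reaches G1/S genes by way of Rad53, a checkpoint kinase, and Nrm1, a corepressor. Only replicate 1 has arrays between times, so the course itself has n = 1, and its values carry no test. The untreated 0 min extract also serves the other 3 loops of replicate 1. The test of the course also used untreated wild-type cells at 30 to 75 min and replicate 2 of both conditions. For its estimate of spread it further used wild-type cells in MMS (methyl methanesulfonate, 0.033%) or HU (hydroxyurea, 0.2 M), rad53Δ cells untreated or in either agent, and untreated galsicΔP cells with and without nrm1Δ, all in the BY4741 background. The labels do not say from which event the minutes are counted, when CPT was added, or whether replicates were separate cultures. The RNA is that of whole cultures, in which fewer cells at a stage and less RNA per cell cannot be told apart.

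CPT traps topoisomerase I on DNA in a complex that replication forks run into, so its damage arises mainly in S phase. Cells that leave a pheromone arrest start from G1 and express gene groups in a fixed order. The factors SBF (Swi4 and Swi6) and MBF (Mbp1 and Swi6) act late in G1, SBF on G1 cyclin and cell wall genes and MBF on genes of DNA synthesis and repair. Histone genes follow in S phase, the CLB2 cluster from G2 to mitosis, and M/G1 genes, many of them for cell separation in the daughter, as mitosis ends. Nrm1, itself made from an MBF target gene, switches MBF targets off after G1, and Rad53 can keep Nrm1 from doing so when replication is disturbed.

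Each value below is the log2 of 1 sample over another, with the base taken as 2, and a level is the least-squares value from all 5 arrays. Around a closed ring the 5 log2 ratios of a gene should sum to 0, and the sum they gave is the only measure of error that the ring holds. Over 6249 features (5592 of them named genes) the CPT sums had an SD of 0.721, where 5 unrelated arrays of this spread would give 1.08. The sum was 1 or more in size for 911 features, or 14.6%. It corresponds to an error of 0.322 per array, of 0.288 for a level at 30 or 75 min against 0 min and of 0.353 for 45 or 60 min against 0 min and for 75 min against 30 min. This error covers the arrays and not the spread between cultures. A dye effect shared by the 5 arrays of a gene would add to its sum but cancel in its least-squares levels. The sum does not separate such an effect from array error. The values by the 2 ways around the ring, given below, differ by this same sum. The CPT ring closed less well than those of MMS (SD 0.528) and HU (SD 0.377), and better than the untreated ring (SD 0.943). Across the 6249 features the sums of the CPT and untreated rings correlated at r = 0.84, those of the CPT and MMS rings at 0.36 and those of the CPT and HU rings at 0.22. The other 3 pairs of rings gave 0.25 for untreated and HU, 0.10 for untreated and MMS and 0.09 for MMS and HU. All 4 rings share the 0 min extract, and the CPT and untreated, the CPT and MMS, and the untreated and HU rings also share 1 slide each. Both arrays that hold CPT 75 min lie on slide 3, while the other 3 arrays of the CPT ring lie on slide 2.

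**Figure D1:**
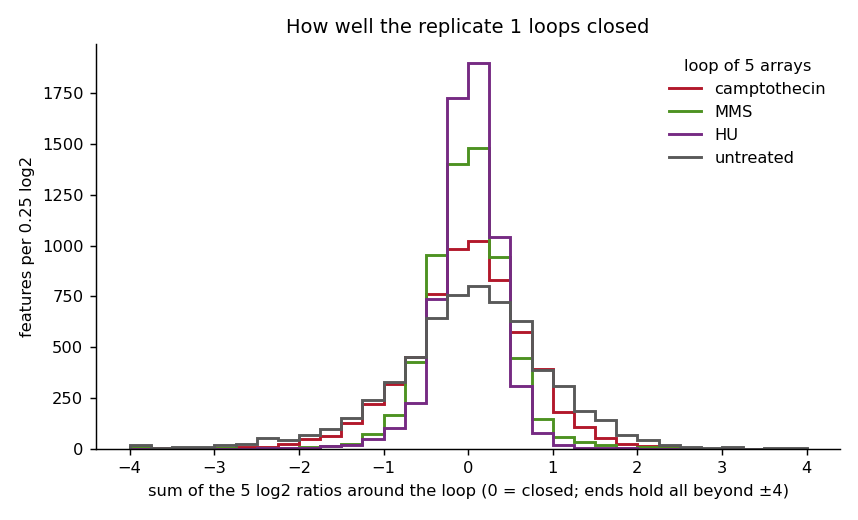
Number of features (vertical axis) by the sum of their 5 log2 ratios around each ring of replicate 1 (horizontal axis, log2, in steps of 0.25), with 1 line for each of the CPT, MMS, HU and untreated rings. The CPT line is wider than those of MMS and HU and narrower than that of untreated cells, with SDs of 0.721, 0.528, 0.377 and 0.943.

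The cells had left the pheromone programme by the first CPT sample. Of 27 pheromone response genes, 25 stood more than 2-fold below 0 min at 30 min and 0 stood above it, where 3.68% of all features lay that far below and 5.68% that far above. The list median was -2.11, -2.14, -2.21 and -1.82 at 30, 45, 60 and 75 min, against 0.01, 0.03, 0.03 and -0.01 for all features. FIG1 (YBR040W), a membrane protein gene of mating, had ratios of -3.22 for CPT 30 over untreated 0 min, then -0.23, -0.23 and 0.32 for the next 3 steps in CPT, and 3.39 for untreated 0 min over CPT 75 min. It was therefore low in all 4 CPT samples, and its ring closed to 0.03. The 4 genes of mating named next differed by at most 0.52 between the first and the last CPT sample. The karyogamy regulator gene KAR4 (YCL055W) stood at -3.07 at 30 min and -2.68 at 75 min, and ASG7 (YJL170C), specific to MATa cells, at -2.91 and -2.99. PRM1 (YNL279W), for the fusion of mating cells, was at -2.78 at 30 min and -2.64 at 75 min, and KAR5 (YMR065W), for the fusion of nuclei, at -2.70 and -2.18. FAR1 (YJL157C), whose product inhibits the Cdk in arrested cells, came back by most of the list, at -1.94 at 30 min and -1.06 at 75 min. MFA1 (YDR461W), for the a-factor pheromone, was further below at 75 min, at -2.41, than at 30 min, at -1.86. BAR1, for the protease that degrades alpha factor, stood at -0.04 at 30 min, the highest value in the list.

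**Figure D2:**
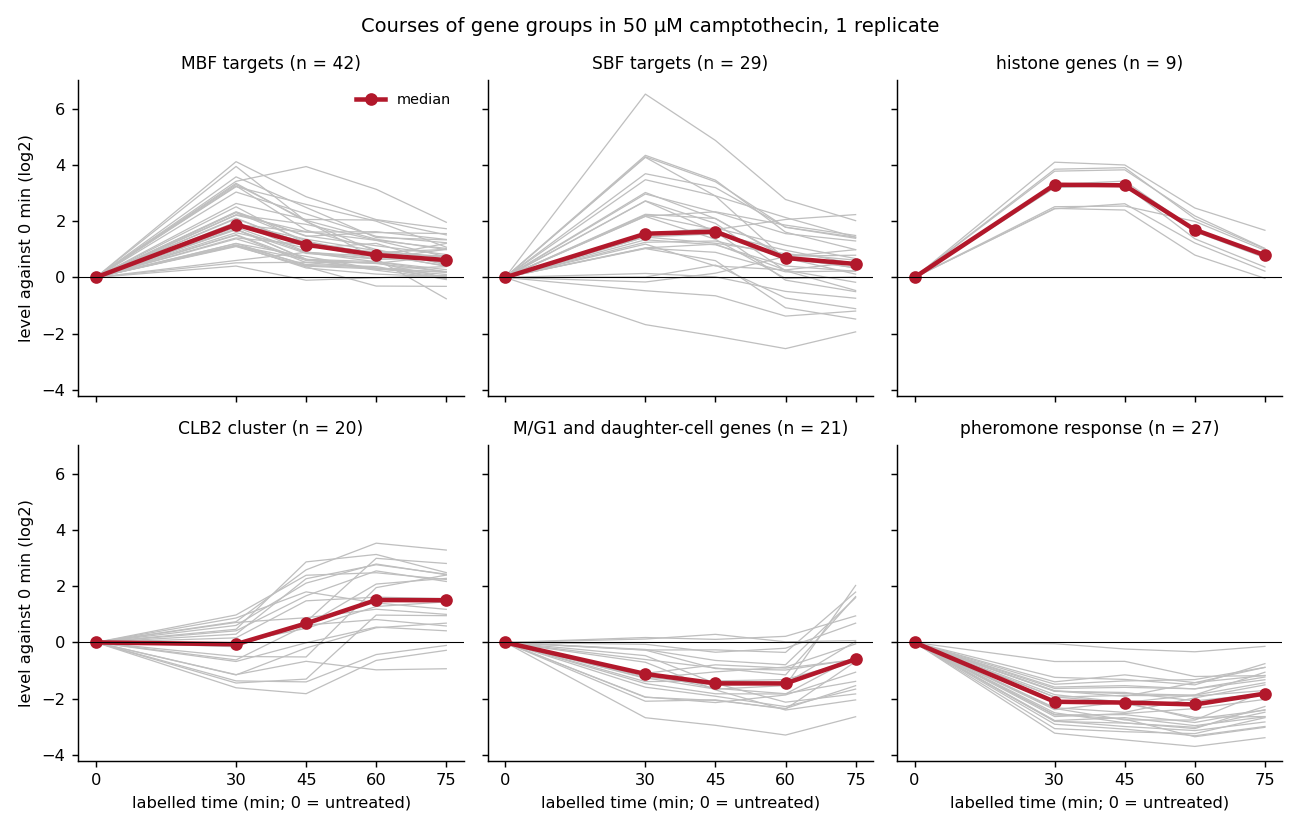
Level against the untreated 0 min sample (vertical axis, log2) by labelled time (horizontal axis, min) for 6 gene groups in 50 µM CPT, with a grey line for each gene and a red line for the group median. The MBF median was highest at 30 min (1.88). Histone medians lay close together at 30 and 45 min (3.30 and 3.27), as did SBF medians (1.55 and 1.63). Medians of the CLB2 cluster were highest at 60 and 75 min (1.51 and 1.5), while pheromone genes stayed near -2.

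MBF targets stood highest in the first CPT sample. Of 42 measured members, 39 lay more than 2-fold above 0 min at 30 min and all 42 lay above it by some amount, with a range of 0.40 to 4.12. The median was 1.88, 1.16, 0.80 and 0.62 at the 4 times, and 1.91, 1.18 and 0.97 at the first 3 from the slide 2 arrays alone. From 30 to 75 min, 32 of the 42 stood more than 2-fold lower and 0 more than 2-fold higher, where 2.74% of all features lay that far down and 3.46% that far up. The list is drawn from textbook knowledge, and members that the array does not hold were not analysed here.

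RNR1 (YER070W), for the large subunit of ribonucleotide reductase, had the ring that closed worst of all 6249 features. Its ratios were 4.94 for CPT 30 over untreated 0 min, -0.95, -0.34 and -0.42 for the next 3 steps in CPT, and 1.76 for untreated 0 min over CPT 75 min. These add to 4.98. The first array alone put CPT 30 min 4.94 above 0 min, whereas the other 4 arrays together put it at -0.04, so the RNR1 level at 30 min against 0 min is not settled by these data. The least-squares levels of 3.95, 2.0, 0.66 and -0.76 at 30, 45, 60 and 75 min split that gap. Each of the 3 steps inside CPT was below 0, and by either way around the ring RNR1 at 75 min stood below its level at 30 min, by -1.72 through these steps and by -6.70 through the 0 min sample. In the MMS ring, which uses the same 0 min extract, RNR1 ratios were 4.29 for 30 over 0 min and -4.13 for 0 over 75 min, with a sum of -0.89. In the HU ring the sum was -3.26 and in the untreated ring 0.00.

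PLM2 (YDR501W), for a transcription factor of the forkhead-associated family and a target of MBF, closed well. Its ratios were 1.46 for CPT 30 over untreated 0 min, -0.19, -0.22 and 0.16 inside CPT, and -0.94 for untreated 0 min over CPT 75 min, with a sum of 0.28. PLM2 stood at 1.41, 1.16, 0.89 and 1.0 at the 4 times, above 0 min by both ways around the ring at every time. The step from 30 to 75 min was -0.41, against -1.36 for the median MBF target.

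**Figure D3:**
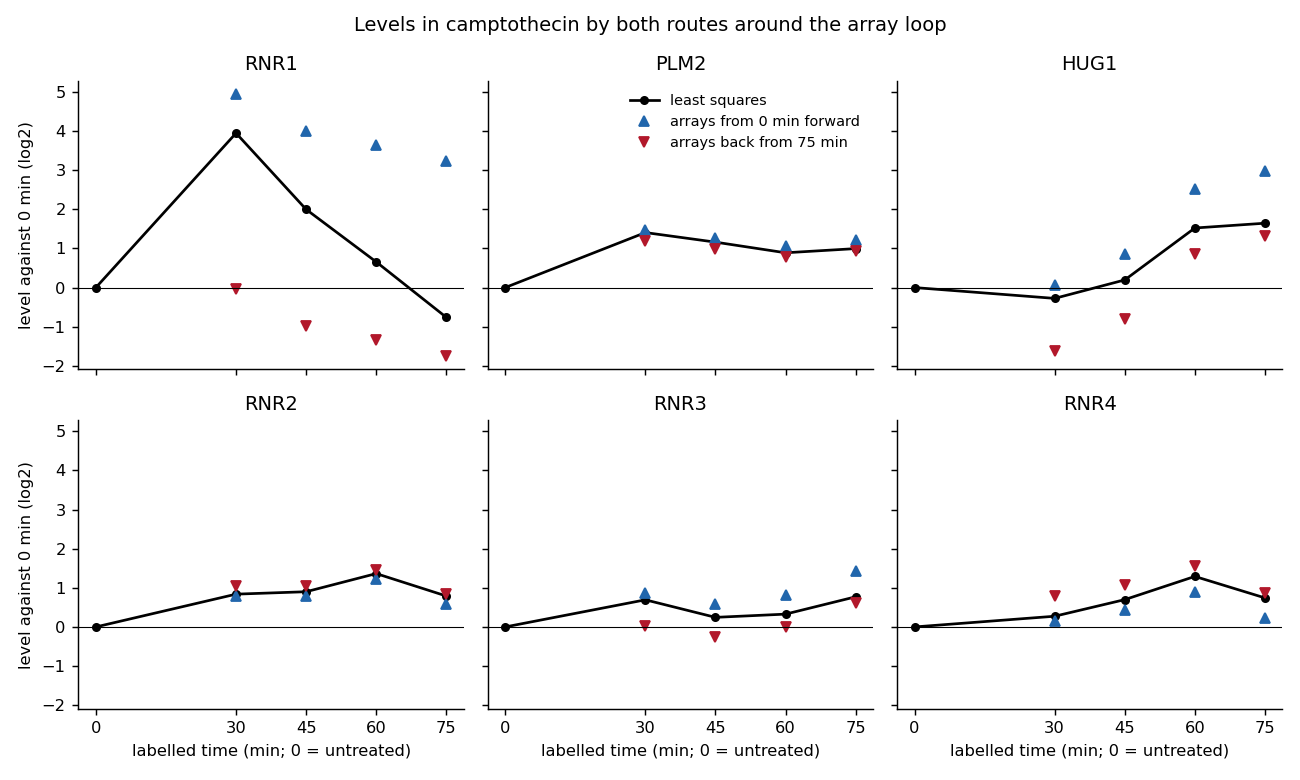
Level against untreated 0 min (vertical axis, log2) by labelled time (horizontal axis, min) for RNR1, PLM2, HUG1, RNR2, RNR3 and RNR4 in CPT, as the least-squares value (black), through the arrays from 0 min onward (blue) and through those back from 75 min (red). The 2 ways around the ring lie 4.98 apart for RNR1, 1.67 for HUG1 and 0.28 for PLM2.

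The DNA polymerase and fork genes among the MBF targets stood lower at 75 min than at 30 min. POL30 (YBR088C), for the sliding clamp, stood at 3.25 at 30 min and 0.45 at 75 min. POL1 (YNL102W), for the catalytic subunit of polymerase alpha, stood at 3.30 and 0.99, and CDC21 (YOR074C), for thymidylate synthase, at 3.04 and 1.23. CLB6 (YGR109C), for an S-phase cyclin, was at 3.58 and 1.34, and MCD1 (YDL003W), for a cohesin subunit, at 3.35 and 0.74. All 5 had lost more than 2-fold of their 30 min level by 75 min. The replication protein A genes RFA1 and RFA2 stood at 1.72 and 1.84 at 30 min and at 0.28 and 0.64 at 75 min. Some members kept more of their level. TOF1 and CSM3, whose products act together in the fork protection complex, stood at 2.32 and 1.88 at 30 min and at 1.56 and 1.35 at 75 min, although the CSM3 ring closed poorly, with 1.49 and 3.42 by the 2 ways at 30 min. The mismatch repair gene MSH6 was at 2.63 and 1.51. CDC6 (YJL194W), for the loader of the replicative helicase, was the member highest at 75 min against 30 min, with 0.60 at 30 min and 1.21 at 75 min.

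The regulators named in the study's title are themselves MBF targets. NRM1 (YNR009W) had ratios of 3.63 for CPT 30 over untreated 0 min, 0.74, -0.59 and -0.96 inside CPT, and -1.74 for untreated 0 min over CPT 75 min. By least squares NRM1 stood at 3.42, 3.94, 3.13 and 1.96 at 30, 45, 60 and 75 min. That is highest at 45 min, where the MBF median stood at 1.16. Its ring closed poorly, and by the other way around it NRM1 stepped down from 30 to 45 min. The time of its highest level is therefore not settled. RAD53 (YPL153C), for the checkpoint kinase, had ratios of 2.05, -0.96, -0.30, -0.34 and, for untreated 0 min over CPT 75 min, -0.63. RAD53 stood at 2.09, 1.17, 0.90 and 0.60, following the group median. DUN1 (YDL101C), for a kinase that acts below Rad53, was at 1.59, 1.04, 1.21 and 0.48, and MRC1, for a replication checkpoint adaptor, at 2.21, 1.63, 1.32 and 0.73.

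SBF targets spread more widely than MBF targets. Of 29 members, 24 stood more than 2-fold above 0 min at 30 min and 1, PCL2, more than 2-fold below it at -1.68. Of all features, 5.68% lay that far above and 3.68% that far below. The list median was 1.55, 1.63, 0.69 and 0.48 at the 4 times, and 1.86, 1.67 and 0.53 at the first 3 from the slide 2 arrays alone. The median step from 30 to 45 min was -0.41. From 30 to 75 min, 17 members stood more than 2-fold lower and 1 more than 2-fold higher, against 2.74% and 3.46% of all features. TOS6 (YNL300W), for a cell wall protein, had the highest level of all features at 30 min, with ratios of 6.96 for CPT 30 over untreated 0 min, -1.21, -1.66 and -0.31 inside CPT, and -1.58 for untreated 0 min over CPT 75 min. Its levels were 6.52, 4.87, 2.77 and 2.02, with a ring sum of 2.19. The G1 cyclin gene CLN1 (YMR199W) stood at 4.29, 3.40, 1.79 and 1.43, and the cyclin gene PCL1 (YNL289W) at 4.27, 2.89, 0.64 and 0.52, with a PCL1 ring sum of 3.58. By least-squares levels these 3 genes were highest at 30 min and lower at each later time. The array of CPT 75 over 60 min alone read 0.59 for PCL1, so the direction of that PCL1 step is not settled. YOX1 (YML027W), for a repressor of M/G1 genes, stood at 3.69, 3.19, 1.78 and 1.39 with a ring sum of -0.04. The mannosyltransferase gene MNN1 (YER001W) was at 4.34 and 0.99 at 30 and 75 min. Cell wall genes of the list with least-squares levels below 0 min at 75 min included CSI2 (YOL007C) and SVS1 (YPL163C). CSI2 stood at 2.71 at 30 min and -0.51 at 75 min, and SVS1 at 2.72 and -0.46. By the 2 ways around the ring CSI2 was at 0.17 and -0.68 at 75 min, so its side of 0 min is not settled. SVS1 was at -0.07 and -0.56 by these ways. CRH1 (YGR189C), for a cell wall transglycosylase outside the list, had 2.31 at 30 min and -0.70 at 75 min. The mating type switching gene HO (YDL227C) was the list's highest at 75 min against 30 min, at 1.15, but its 2 ways gave -0.11 and 1.99.

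Histone genes followed the pattern of S phase. All 9 stood more than 2-fold above 0 min at 30 min, with a median of 3.30, where 5.68% of all features lay that far above. From 30 to 75 min, 9 of 9 stood more than 2-fold lower, against 2.74% of all features. The median was still 3.27 at 45 min, then 1.70 at 60 min and 0.79 at 75 min, while the slide 2 arrays alone gave 3.32, 3.53 and 2.08 at 30, 45 and 60 min. HTB2 (YBL002W), for a histone H2B, had ratios of 4.20 for CPT 30 over untreated 0 min, 0.00, -1.43 and -0.69 inside CPT, and -1.58 for untreated 0 min over CPT 75 min. HTB2 thus held its level between 30 and 45 min and was lower in both later samples, at 4.10, 4.00, 2.47 and 1.68. The H4 genes HHF1 (YBR009C) and HHF2 (YNL030W) stood at 3.85 and 3.78 at 30 min and at 1.02 and 1.03 at 75 min. All 4 kinds of core histone gene showed this order. The H2A genes HTA1 (YDR225W) and HTA2 (YBL003C) stood at 3.19 and 3.31 at 30 min and at 0.37 and 0.79 at 75 min, and HTB1 (YDR224C) at 3.30 and 0.70. The H3 genes HHT1 (YBR010W) and HHT2 (YNL031C) were at 2.45 and 2.44 at 30 min and at -0.03 and 0.22 at 75 min. The linker histone gene HHO1 (YPL127C) had the smallest step, at 2.51 and 0.96. The paired copies of each core histone are nearly identical in sequence, so their probes may read both.

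The CLB2 cluster stood highest late in the course. At 30 min 5 of its 20 members stood more than 2-fold below 0 min and 0 above, against 3.68% and 5.68% of all features. At 75 min 12 stood more than 2-fold above and 0 below, against 6.1% and 3.92% of all features. All 20 lay higher at 75 min than at 30 min, with steps of 0.21 to 2.96. Of these, 16 stood higher by more than 2-fold, against 3.46% of all features. The median was -0.06, 0.68, 1.51 and 1.5 at the 4 times, and 0.02, 0.90 and 1.53 at 30, 45 and 60 min from the slide 2 arrays alone. The cluster thus stood above 0 min on the slide 2 arrays too. CLB2 (YPR119W), for the main mitotic cyclin, had ratios of 0.13 for CPT 30 over untreated 0 min, 1.81, 0.33 and -0.50 inside CPT, and -2.59 for untreated 0 min over CPT 75 min. The CLB2 step between 30 and 45 min was the largest of the 3 inside CPT, and the levels were 0.29, 2.27, 2.76 and 2.43. CLB1 (YGR108W), for its partner cyclin, stood at 0.47, 2.86, 3.13 and 2.48, and SWI5 (YDR146C), for the factor that switches on M/G1 genes, at 0.74, 2.58, 3.53 and 3.29. The polo kinase gene CDC5 (YMR001C) was at 0.61, 2.11, 2.79 and 2.41. By least-squares levels these 4 genes were highest at 60 min. Their ring sums were -0.82 for CLB2, 0.88 for CLB1, -0.86 for SWI5 and -0.58 for CDC5. In each gene a step next to 60 min changed direction by the other way around the ring. The time of the highest level is therefore not settled for these genes.

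Other members of the cluster stayed near their 30 min level at 45 min and were higher from 60 min. KIN3 (YAR018C), for a mitotic kinase, stood at -0.50, -0.52, 1.95 and 2.40, and CDC20 (YGL116W), for an activator of the anaphase promoting complex, at -1.44, -1.30, 0.97 and 0.95. The largest steps of HOF1 and CHS2 also lay between 45 and 60 min. HOF1 (YMR032W) and CHS2 (YBR038W), for cytokinesis and the septum, stood at 2.99 and 2.08 at 60 min and at 2.81 and 2.28 at 75 min, against -0.15 and -0.62 at 30 min. SPO12 (YHR152W) and DBF2 (YGR092W), of mitotic exit, were still below 0 min at 75 min, at -0.28 and -0.11, although they stood 1.33 and 1.26 above their 30 min levels. MOB1 (YIL106W), for the partner of the Dbf2 kinase, was at -1.16 at 30 min and 0.69 at 75 min. HST3 (YOR025W), for a histone deacetylase of the cluster, stood at 0.41, 1.66, 2.54 and 2.17, and BUD4 (YJR092W), of the bud site, at 0.98, 2.39, 2.48 and 2.24. The members that follow, among them genes of cytokinesis, the spindle and polarity, all stood lower at 75 min than HST3 and BUD4. ALK1 (YGL021W) was at 1.56 at 75 min, IQG1 (YPL242C) at 1.44, BUD3 (YCL014W) at 1.18, KIP2 (YPL155C) at 1.0, MYO1 (YHR023W) at 0.59 and ASE1 (YOR058C) at 0.41. BUD8 (YLR353W) had the smallest step and stayed below 0 min, at -1.15 at 30 min and -0.94 at 75 min.

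The last sample showed an upturn of part of the M/G1 list. Of 21 such genes, 12 stood more than 2-fold below 0 min at 30 min and 0 above, against 3.68% and 5.68% of all features. From 30 to 75 min, 7 stood more than 2-fold higher and 2 that much lower, against 3.46% and 2.74% of all features. The list median was -1.12, -1.46, -1.46 and -0.60. Its median step from 30 to 75 min was 0.77 in CPT and 0.88 in untreated cells of replicate 1. Taken gene by gene, CPT minus untreated for that step had a list median of -0.76 in replicate 1 and -2.35 in replicate 2. PIR1 (YKL164C), for a cell wall protein, had ratios of -1.19 for CPT 30 over untreated 0 min, -0.33, 0.19 and 3.63 inside CPT, and -1.96 for untreated 0 min over CPT 75 min. Its level was below 0 min in the 3 samples from 30 to 60 min, at -1.26, -1.66 and -1.54, and above it at 75 min, at 2.03, and its step of 3.29 from 30 to 75 min was the highest of all features. EGT2 (YNL327W), for a glucanase of cell separation, stood at -1.15 at 60 min and 1.63 at 75 min, and DSE3 (YOR264W), expressed in daughter cells, at -0.79 and 1.59. The cyclin gene PCL9 stood at -0.35 and 1.79. AIM44 (YPL158C), for a protein of the bud neck outside the list, was at -0.04 and 2.43. Other daughter genes remained low, with SCW11 (YGL028C) at -2.64 at 75 min, the chitinase gene CTS1 at -2.04 and the glucanase gene DSE2 (YHR143W) at -1.83. The CPT 75 min sample was hybridised on slide 3 alone.

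**Figure D4:**
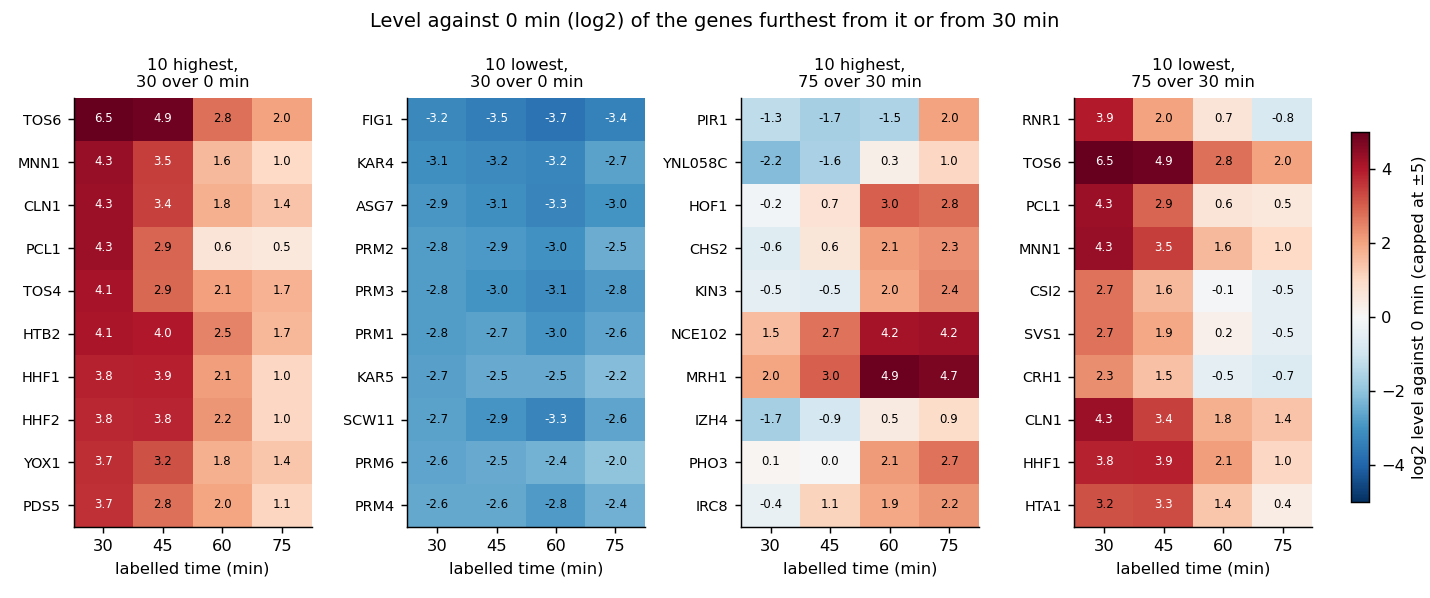
Level against untreated 0 min (log2, printed in each cell and shown by colour) at 30, 45, 60 and 75 min of CPT for the 10 named genes highest and lowest at 30 min against 0 min and at 75 min against CPT 30 min, among those past 2-fold in that direction by both ways around the ring. Genes high at 30 min were lower by 75 min, genes of the pheromone response stayed low, and HOF1, CHS2 and KIN3 passed 2 only at 60 min or later.

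The ribonucleotide reductase genes RNR2, RNR3 and RNR4 had least-squares levels between 0.24 and 1.36 in all 4 CPT samples. RNR2 (YJL026W), for a small subunit, had ratios of 0.79 for CPT 30 over untreated 0 min, 0.01, 0.41 and -0.62 inside CPT, and -0.84 for untreated 0 min over CPT 75 min, and stood at 0.84, 0.90, 1.36 and 0.79. RNR4 (YGR180C), for the partner small subunit, had ratios of 0.14, 0.30, 0.46, -0.68 and, for untreated 0 min over CPT 75 min, -0.87, and stood at 0.27, 0.70, 1.29 and 0.74. Both were highest at 60 min, where RNR4 stood 1.02 above its 30 min level. The RNR4 ring sum was -0.64. RNR3 (YIL066C), for the damage-induced large subunit, stood at 0.69, 0.24, 0.33 and 0.77, with a ring sum of 0.83. By the 2 ways around the ring RNR3 was at 0.86 and 0.03 at 30 min and at 0.58 and -0.25 at 45 min. HUG1 (YML058W-A), for a checkpoint-induced inhibitor of the enzyme, had ratios of 0.06, 0.80, 1.66, 0.46 and, for untreated 0 min over CPT 75 min, -1.31. Each of its 3 steps in CPT was above 0, and the levels were -0.28, 0.19, 1.52 and 1.64, with a ring sum of 1.67. By the other way around the ring the step from 30 to 45 min was -0.86. In the untreated ring HUG1 also stepped up at each of the 3 arrays between 30 and 75 min, by 0.97, 0.64 and 0.63, with a ring sum of 1.85. The inhibitor genes SML1 (YML058W) and DIF1 (YLR437C) stood at 0.15 and 0.06 at 75 min, and RFX1 (YLR176C), for a repressor of damage genes that is itself damage-inducible, at 1.07 at 30 min and 0.72 at 75 min.

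Damage-inducible genes did not share a direction in this course, with 12 of 20 higher and 8 lower at 75 min than at 30 min. Of all 6249 features, 2858 stood higher and 3391 lower in that step. Against 0 min, 4 of the 20 stood more than 2-fold above and 1 below at 30 min, and again 4 above and 1 below at 75 min. Of all features 5.68% and 3.68% lay that far above and below at 30 min, and 6.1% and 3.92% at 75 min. The list median was 0.15, 0.22, 0.42 and 0.48. Members in opposite directions included DIN7, for a mitochondrial nuclease, at 1.53 at 75 min, DDR2, a general stress gene, at 1.27, and the polyubiquitin gene UBI4 at -1.07. Among 26 genes of topoisomerases and fork repair, 4 stood more than 2-fold above 0 min at 30 min and 1 below. TOP1, for the enzyme that CPT traps, was at 0.71, 0.36, 0.05 and -0.08. TOP3 (YLR234W), of the complex that resolves crossed strands, was at 2.15, 2.09, 1.76 and 1.12, TOP2 at 1.78, 1.71, 1.46 and 0.77, and SAE2, for DNA end resection, at 1.61, 1.91, 1.67 and 1.29. TDP1, for the phosphodiesterase that frees trapped topoisomerase I from DNA, was below 0 min, at -1.05, -0.89, -0.64 and -0.21, with -1.31 and -0.03 by the 2 ways at 30 min. RMI1 (YPL024W), for a partner of Top3, stood at 0.02 at 30 min and 1.08 at 75 min, with a ring sum of -1.34.

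All 6 MCM genes, for the replicative helicase, stood lower at 45 min than at 30 min and 60 min. MCM2 stood at 0.71, -0.26, 0.79 and 1.04, MCM5 at -0.26, -0.97, 0.13 and 0.43, and MCM7 (YBR202W) at 0.36, -0.38, 1.45 and 1.61. Of the 14 genes of the licensing list, 1 stood more than 2-fold above 0 min at 30 min, a share near the 5.68% of all features, and 5 at 75 min, where 6.1% of all features did. Some genes outside the cycle lists also stood far from 0 min. NCE102 (YPR149W) and SUR7 (YML052W), for eisosome proteins of the plasma membrane, stood at 4.24 and 3.28 at 75 min, and MRH1 (YDR033W), for a plasma membrane protein, at 4.69. NCE102 had ratios of 1.45, 1.12, 1.38, 0.01 and, for untreated 0 min over CPT 75 min, -4.31. It was higher at each time up to 60 min. The acid phosphatase gene PHO3 (YBR092C) stood at 0.11, 0.04, 2.14 and 2.72, and its closely similar relative PHO5 at 0.02, 0.14, 1.27 and 2.19, so their probes may read each other's RNA. Of 20 iron uptake genes, 5 stood more than 2-fold above 0 min at 30 min and 6 at 75 min, against the same 5.68% and 6.1%, among them the siderophore transporter gene SIT1 at 3.58 and 3.28 and the iron permease gene FTR1 (YER145C) at 2.40 and 1.68.

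Genes of growth and stress showed smaller values. The ribosome biogenesis median was 0.41 at 30 min and 0.05 at 75 min, and that of cytosolic ribosomal proteins -0.15 and -0.17. Proteasome genes stood at -0.47 and -0.44, mitochondrial respiration at -0.41 and -0.20, and sulfur and methionine genes at -0.30 and -0.74. The stress-induced list had medians of -0.48, -0.71, -0.66 and -0.43, with the cell wall glycoprotein gene YGP1 (YNL160W) at 1.68, 0.49, 2.01 and 3.36 and the heat shock gene HSP12 (YFL014W) at -0.42, -1.10, -1.94 and -1.85. Medians of the oxidative stress, amino acid, purine, glycolysis and ergosterol lists lay between -0.12 and 0.12 at 30 min and between -0.38 and -0.08 at 75 min. Phosphate acquisition genes stood at 0.29 and 0.20, and 5 genes of the other mating type at -0.26 and -0.19.

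Over all features, 355 stood more than 2-fold above 0 min at 30 min and 230 below. By both ways around the ring these counts were 241 and 161. Of the 355, 111 (31.3%) were still past 2-fold at 75 min and 134 had come down by more than 2-fold. Of the 230 low ones, 139 (60.4%) were still past 2-fold at 75 min. From CPT 30 min, the features past 2-fold numbered 52, 215 and 387 at 45, 60 and 75 min, and of the last 216 were higher and 171 lower. By both ways around the ring the counts were 29, 119 and 181. They ran up to 891, 934 and 715 with 1 array left out, and the 52 at 45 min were 133 with arrays scaled to equal spread. Among 477 features whose 4 CPT levels spanned 2-fold or more, 158 (33.1%) were highest at 30 min and 207 (43.4%) at 75 min, with 58 and 54 in between.

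Whether the course in CPT differed from that of untreated cells was tested with both replicates, as CPT minus untreated at 75 min less CPT minus untreated at 30 min. In replicate 2 this contrast comes from arrays within a time. In replicate 1 no array sets CPT against untreated cells at 30 or 75 min, so its value comes through the arrays between times of both rings, which meet at the 0 min extract, and carries their closure errors. The test used the samples of all strains and agents, mutants included, for the spread (limma, Benjamini-Hochberg adjustment over 6249 features, threshold 0.05, n = 2 replicates). Of the features, 29 (0.464%) passed as higher and 60 (0.96%) as lower in CPT. Of the 42 MBF targets, 11 passed as lower and 0 as higher, among them CLB6, POL30, MCD1, CLB5, SWI4 and RAD53. Of 29 SBF targets 5 passed as lower, CLN2, MNN1, YOX1, CSI2 and BUD9, and of 21 M/G1 genes 14, among them DSE4, EGT2, DSE3, PIR1 and SCW11. Of 20 members of the CLB2 cluster, 5 passed as higher, SWI5, CDC5, ALK1, MOB1 and ASE1. Histone, pheromone, licensing and fork repair lists had 0 members past the threshold. These members are named because they passed, with their values known.

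The difference had several forms in replicate 1. Of the 60 features that passed as lower, 29 stepped down from 30 to 75 min in both CPT and untreated cells, 16 stepped up in both, and 15 stepped down in CPT and up in untreated cells. CLB6 (YGR109C), of the first kind, stepped by -2.24 in CPT and by -0.92 in untreated cells, and its course difference was -3.14 ± 0.57 (SE, limma adjusted p = 0.004), with -1.32 in replicate 1 and -4.97 in replicate 2. POL30 (YBR088C) stepped by -2.81 in CPT and -1.22 in untreated cells, with a course difference of -2.92 ± 0.59 (limma adjusted p = 0.012). DSE4 (YNR067C), for a daughter-cell glucanase, stepped up in both, by 1.26 in CPT and 2.76 in untreated cells (course difference -2.58 ± 0.34, limma adjusted p = 0.00013). MSA2 (YKR077W), for a protein that binds SBF and MBF, stepped by -1.17 in CPT and 0.56 in untreated cells (-2.53 ± 0.33, limma adjusted p = 0.00013). Among the 29 that passed as higher, SWI5 (YDR146C) stepped by 2.55 in CPT and 1.78 in untreated cells (2.36 ± 0.60, limma adjusted p = 0.045). MMR1 (YLR190W), for the inheritance of mitochondria by the bud, stepped by 1.66 in CPT and by -0.09 in untreated cells (2.04 ± 0.47, limma adjusted p = 0.028). The untreated MMR1 step was -1.71 through the steps and 0.99 through the 0 min sample, so its direction is not settled. By these 2 ways the replicate 1 course difference was 3.3 and 0.71 for MMR1 and 0.06 and 1.25 for SWI5. Of these 6 genes, DSE4 and MSA2 also passed with wild-type samples alone and CLB6, POL30, SWI5 and MMR1 did not, and CLB6 and SWI5 also lost the call without replicate 2.

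The replicates differed in where the difference lay. For the 60 lower features, CPT minus untreated had a median of 0.06 at 30 min and -0.88 at 75 min in replicate 1, and of 1.06 at 30 min and -1.30 at 75 min in replicate 2. For the 29 higher ones, the medians were -0.17 and 0.59 in replicate 1 and -0.91 and 0.57 in replicate 2. All 60 lay below 0 and all 29 above 0 at 75 min in both replicates. The values at 30 and 75 min enter the difference by which these features were chosen, which favours such signs. At 30 min, 36 of the 60 lay above 0 in replicate 1 and 56 of the 60 in replicate 2. Between these times the replicate 2 medians changed sign at each sample. They were -0.45 at 45 min and 0.19 at 60 min for the 60, and 0.27 and -0.11 for the 29. In replicate 1 the medians at 45 and 60 min were 0.21 and -0.08 for the 60, and -0.03 and 0.35 for the 29. All 89 had the same sign in both replicates, which their choice by the mean of these 2 values favours, and 80 were larger in replicate 2. Without replicate 1 the test called 388 features and without replicate 2 it called 372, of which 82 and 39 were among the 89. With wild-type samples alone it called 21, all among the 89. Over the 6249 features, which are not independent, r between the course differences of replicates 1 and 2 was 0.20. For 60 against 30 min r was 0.13, and for 45 against 30 min it was -0.17.

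**Figure D5:**
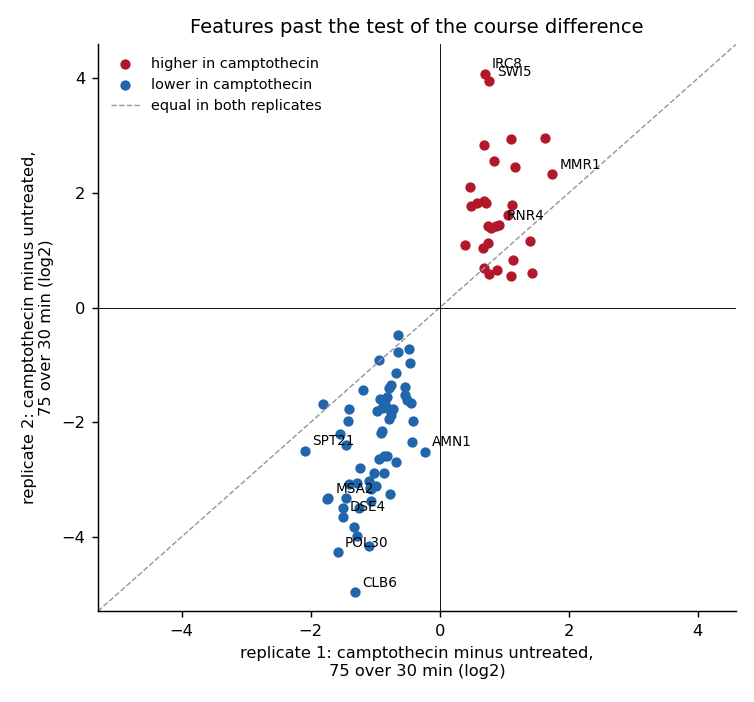
Course difference, CPT minus untreated for 75 over 30 min (log2), in replicate 1 (horizontal axis) and replicate 2 (vertical axis) for the 89 features past the limma threshold, red where higher in CPT and blue where lower. The 89 were chosen by a test on the mean of these 2 values. All have the same sign in both replicates, and 80 lie further from 0 in replicate 2, with CLB6 at -1.32 and -4.97.

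Both marker genes missed the threshold in this test. The course difference of RNR1 was -3.51 ± 1.54 (limma adjusted p = 0.34), with -3.64 in replicate 1 and -3.38 in replicate 2. The replicate 1 value rests on the CPT ring that missed closure by 4.98. Through the steps from 30 to 75 min RNR1 moved by -1.72 in CPT and by -1.06 in untreated cells, a difference of -0.66, and through the 0 min sample by -6.70 and -1.06, a difference of -5.64. The course difference of PLM2 was -0.20 ± 0.37 (limma adjusted p = 0.89). RNR4 passed as higher, at 1.18 ± 0.28 (limma adjusted p = 0.035), with 0.92 in replicate 1 and 1.44 in replicate 2, but its limma adjusted p was 0.17 with wild-type samples alone, 0.11 without replicate 2 and 0.13 with arrays scaled to equal spread. RNR2, at 0.91 ± 0.47 (limma adjusted p = 0.45), and HUG1, at 2.33 ± 0.93 (limma adjusted p = 0.28), did not pass. NRM1 stood at 0.36 ± 0.37 (limma adjusted p = 0.76), with -0.45 in replicate 1 and 1.17 in replicate 2. From 30 to 60 min 0 features passed in limma, where 342 had an unadjusted p under 0.05. From 30 to 45 min 1 passed, MATALPHA2 (YCR039C), at 1.39 (limma adjusted p = 0.025), a gene of the other mating type whose probe may also read the silent copies. An unadjusted p under 0.05 was found for 470 features there and for 774 from 30 to 75 min.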

How the data were processed

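Deposited values were 1 number per probe and array. They are signed and centred near 0 and were taken as log2 ratios of Cy5 over Cy3 RNA made by the authors with limma, per the submitters' processing notes. For the base of the logarithm, the background correction and the between-array normalisation the entry is: not given in the sources used here. A base other than 2 would change every fold. No intensities are given, so the signal behind a ratio is unknown. Medians of the 5 arrays lay between -0.0175 and 0.0188.

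The 6266 probes (5609 with 1 symbol, 0 with several, 657 with none; 5608 of the symbols matched the R64 gene table) were averaged per gene to 6249 features. For 16 genes with several probes, the SD between them was at most 0.382. Levels in the loop were fitted by least squares per feature, which cancels a dye effect shared by the 5 arrays. A value by both routes uses the arrays on either side of the ring alone, and 2-fold means 1 on the log2 scale. Python 3.11.15, numpy 2.4.6, pandas 2.3.3 and matplotlib 3.10.9 were used.

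For the course test, levels of 54 extracts in 27 groups were fitted in limma 3.58.1 (R 4.3.3) with 14 blocks of replicate and time or of loop. This left 20 residual degrees of freedom, a prior of 4.41 degrees of freedom, a prior SD of 0.155 and a median SE of 0.23. P-values measure the spread between these samples only, which may be technical. The scripts were tested on simulated data.

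The members, tests and gene lists were chosen with earlier results of these data known. Named genes were, among genes past 2-fold by both routes, the 10 highest and lowest at 30 against 0 min and at 75 against 30 min; the 6 highest and lowest at 45 and 60 against 30 and 75 min; RNR1, PLM2 and all histone, reductase and CLB2 cluster genes; the extreme members of the other lists; and the 8 largest course differences each way. Further list members were named for their roles, after their values were seen. Alternatives left out each array or replicate, used slide 2 alone, and changed scaling, centring, probe averaging, the dye term and the fit.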

Additional observations from a re-analysis of the deposited data

Results flagged for a closer look

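The course differences below, of the step from 30 to 75 min between CPT and untreated cells, passed the limma test at an adjusted p under 0.05, and they were the 8 largest in each direction. Of these 16, 12 no longer passed with wild-type samples alone, 6 without replicate 2 and 4 with a dye term for slide 3. Higher in CPT were IRC8, for a bud tip protein, at 2.39, SWI5 at 2.36, the kinase gene FRK1 at 2.29, MMR1 at 2.04, ALK1 at 2.02, YML119W at 1.81, CDC5 at 1.76 and YNL058C at 1.70. Lower in CPT were CLB6 at -3.14, POL30 at -2.92, the G1 cyclin gene CLN2 at -2.63, YBR071W at -2.63, DSE4 at -2.58, MCD1 at -2.58, EGT2 at -2.54 and MSA2 at -2.53. Without replicate 2 the calls of IRC8, SWI5, CDC5, YNL058C, CLB6 and CLN2 were lost, and IRC8, SWI5, CDC5 and YNL058C are also those lost with the dye term. The calls of FRK1, DSE4, EGT2 and MSA2 passed in all 3 of these settings. Each of the 16 had the same sign in both replicates, which their choice by the mean of both values favours, and was larger in replicate 2.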

How the results depend on the processing

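The 5 array ring has n = 1, and the CPT 75 min sample lies on slide 3 alone, so slide 2 alone gives no 75 min count. Centring the arrays, counting probes on their own and, an alternative added after seeing the data, giving the whole ring sum to the 2 slide 3 arrays kept every count of the course within 1.5 times, and slide 2 alone did so for the counts at 30, 45 and 60 min. The counts of features past 2-fold moved more in other settings. At 30 min against 0 min the 585 features were 383 with arrays scaled to equal spread. At 45 min the 678 were 389 by both routes. At 60 min the 694 were 383 scaled, 327 by both routes and 399 without the 25% of features with the largest ring sum. At 75 min the 626 were 189, 265 and 341 in these settings. Against CPT 30 min, the 52 at 45 min were 133 scaled, 29 by both routes and 31 without those features, the 215 at 60 min were 119 by both routes and 134 without them, and the 387 at 75 min 181 and 227. Leaving out each array in turn gave 572 to 1579 features at 30 min, 610 to 1463 at 45 min, 554 to 1259 at 60 min and 643 to 844 at 75 min against 0 min, and 46 to 891, 196 to 934 and 466 to 715 at 45, 60 and 75 min against CPT 30 min. RNR1 at 30 min against 0 min ranged from -0.04 without the CPT 30 over untreated 0 min array to 4.94 without any other. At 75 min against 30 min, HO ranged from -0.11 to 1.99 and MET3 from -0.71 to 2.22, the low values being those without that array or the untreated 0 over CPT 75 min array.

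The course test from 30 to 75 min called 89 features, and 21 with wild-type samples alone, 161 scaled, and 61 with a dye term for slide 3 (added after seeing the data), of which 21, 85 and 55 were among the 89. It called 388 without replicate 1 and 372 without replicate 2, of which 82 and 39 were among the 89; the lone sample is there assumed to vary like the other groups. From 30 to 60 min the 0 calls were 6 scaled, 47 without replicate 1 and 92 without replicate 2. From 30 to 45 min the 1 call was 0 with wild type alone and 0 with the slide 3 dye term, 625 without replicate 1 and 3 without replicate 2. Of the 16 named course differences, 12 no longer passed with wild type alone, 6 without replicate 2 and 4 with the slide 3 dye term, all with the same sign. The cause of these moves was not tested. Every comparison is taken within a replicate number, so the number is a block by design.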
